A study of Mus musculus with 25 samples.

Results

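The miR-379 to miR-410 cluster is a run of miRNA hairpins on mouse chromosome 12, named here with the non-coding gene Mirg. Its members were the miRNA entries whose number belongs to one of the cluster's hairpins, with any letter suffix and either arm. They were 65 of the 1618 miRNA entries measured in the hypothalamus. The 65 entries came from 34 hairpins, of which 31 had both arms measured and 3 had 1 arm (miR-1193-3p, miR-1197-3p and miR-496a-3p). There were 31 entries from 5p arms and 34 from 3p arms.

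All animals were wild-type C57BL/6J mice, whose hypothalamus was frozen at 3 months of age, and QIAseq miRNA libraries were made from its total RNA. Group names give the diet of the dam first and that of the offspring second, with HCD for a hypercaloric diet with 52% fat and high sucrose and RD for regular chow. Dams were on their diet for 1 month before they were mated and until their pups were weaned, and offspring received theirs from then on. HCD-HCD therefore had the hypercaloric diet before and after weaning, HCD-RD through the dam only, RD-HCD after weaning only, and RD-RD never. There were 4 libraries of RD-RD males and 3 of each other group, 25 in 8 groups. The labels do not name dams or litters and do not say that libraries came from separate animals, so p-values measure the spread between libraries, which may be technical.

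A miRNA guides the Argonaute protein to messenger RNAs that pair with its seed, the bases near its 5′ end, and lowers their translation or stability. Each hairpin gives a 5p and a 3p arm, and usually one of them is kept far more than its partner. The miR-379 to miR-410 hairpins lie in the imprinted Dlk1-Dio3 region, are expressed from the maternal chromosome, are found in placental mammals and are abundant in brain. In mice, deleting the cluster disturbs the metabolic adaptation of newborns and alters social behaviour, and in rat neurons several of its miRNAs act on dendrites and synapses.

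Mature sequences from RefSeq (GRCm38.p6) matched 62 of the 65 members; miR-485-5p, miR-487b-3p and miR-539-3p are given by name. Those printed first belong to members that were higher in at least 1 male comparison, with the seed (bases 2 to 8) in capitals, read 5′ to 3′. They include the pair miR-379-3p and miR-411-3p, which share the seed AUGUAAC.
miR-329-3p: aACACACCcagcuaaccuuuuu
miR-369-3p: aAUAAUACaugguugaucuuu
miR-379-3p: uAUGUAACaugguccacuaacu
miR-411-3p: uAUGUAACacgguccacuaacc
miR-382-3p: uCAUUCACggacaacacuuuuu
miR-667-3p: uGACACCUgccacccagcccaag
miR-487b-5p: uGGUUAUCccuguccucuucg
The next set belongs to members that were lower in at least 1 male comparison. It includes miR-299a-3p and miR-299b-3p, which share the seed AUGUGGG.
miR-377-3p: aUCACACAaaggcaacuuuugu
miR-299a-3p: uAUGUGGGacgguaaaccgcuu
miR-299b-3p: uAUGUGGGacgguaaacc
miR-380-5p: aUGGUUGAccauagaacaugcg
miR-544-5p: uCUUGUUAaaaagcagagucu
miR-666-5p: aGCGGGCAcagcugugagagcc
miR-668-3p: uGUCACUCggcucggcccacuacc
miR-134-5p: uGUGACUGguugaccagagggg
miR-381-3p: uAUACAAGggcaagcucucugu
miR-758-3p: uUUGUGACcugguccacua
miR-410-3p: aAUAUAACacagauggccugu
The last belongs to the member that was higher in females.
miR-154-3p: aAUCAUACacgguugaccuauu
Only 1 further pair of members shared a seed, miR-410-5p and miR-494-5p (GGUUGUC). The sequence of miR-299b-3p lies whole inside that of miR-299a-3p, and miR-299b-5p lies whole inside miR-299a-5p. Reads from these pairs cannot be told apart with certainty, so their agreement below is not that of 2 independent measurements.

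The hairpins run from chr12:109709060-109743795 (GRCm38), a span of 34736 bp, and 33 of them are on the plus strand. Mir299b is read from the minus strand of Mir299a. The gene Mirg is annotated by GENCODE at chr12:109729764-109749460 on the plus strand. With 2 hairpins placed by their mature arms, 22 hairpins (Mir379 through Mir544) lay upstream of annotated Mirg and 12 (Mir382 through Mir410) within it, 8 overlapping an exon and 4 in an intron. The label Mirg thus covers fewer than all members when taken as the annotated gene.

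The values are folds over RD-RD of the same sex and unadjusted p-values as the authors deposited them, one of each per miRNA and comparison, and values per library were not used here. A miRNA was called higher or lower where its p, adjusted by Benjamini-Hochberg over all miRNAs with a p in that comparison, was below 0.05. The standard error of a log2 fold was taken from the fold and its p, and 95% intervals follow from it. In the deposited remarks, 56 members had a mean count of at least 10 in every group compared, and 9 were below that in at least 1 comparison, 5 of them in all 6. The 6 comparisons share RD-RD libraries within a sex, 3 in males and 3 in females, so they are not independent of each other.

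Members moved in both directions in males whose dams ate HCD, and few were called elsewhere. In HCD-HCD males 18 of 65 members (27.7%) were called, where 19.3% of all miRNAs were. Of these members 6 were higher and 12 lower, where 5.61% and 13.7% of all miRNAs were. Among entries with no low-count remark, 30.5% of members were called, 6 higher and 12 lower. Of 757 such miRNAs 22.3% were called, 79 higher and 90 lower. In HCD-RD males 19 of 65 members (29.2%) were called, where 18.4% of all miRNAs were. They were 7 higher and 12 lower, where 6.38% and 12% of all miRNAs were. With no remark 31.6% of members were called, 7 higher and 11 lower, and 24.2% of 765 miRNAs, 90 higher and 95 lower. With log2 folds centred on the median of miRNAs with no remark, the split was 4 higher and 15 lower in HCD-HCD males and 3 higher and 15 lower in HCD-RD males. Centring subtracted 0.06 and 0.08 from the log2 folds of all miRNAs in these comparisons, and their shares called after it are not given here. No test of the shares or splits was made, and nothing is read from them about the cluster. In RD-HCD males 2 members were lower and 0 higher, where 1.47% of all miRNAs were called, 1.33% being lower, and 0.465% of those with no remark. HCD-RD females had 1 member higher and 1 lower of 63 with a p, where 1.69% of all miRNAs were called, 1% higher and 0.693% lower. HCD-HCD females had 0 members called (0.0668% of all miRNAs) and RD-HCD females 0 (0%). Before adjustment, DESeq2's deposited p was below 0.05 for 5 members in HCD-HCD females (84 of 1497 miRNAs, 5.61%) and for 0 in RD-HCD females (15 of 1497, 1%). In HCD-HCD females all 84 were among the 648 miRNAs with a p and no remark, and the 5 members among 57. Across the 6 comparisons 27 members were called at least once, 26 of them in males and 2 in females, and 38 never were. These were 41.5%, 40% and 3.08% of the members with a p, where 23.1%, 24.8% and 1.51% of all miRNAs with a p were called at least once. Low-count entries are in these shares and are unevenly spread. In HCD-HCD males 852 of all 1618 miRNAs carried a remark, and 6 of the 65 members. The members' shares rest on the counts above and were not tested. The furthest from RD-RD in males among those 38, leaving out low counts, was miR-494-3p in HCD-RD males, at 1.88-fold in the authors' deposited table (adjusted p = 0.068).

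The members' median log2 fold lay between -0.24 and 0.10. It was 0.10 in HCD-HCD males, against -0.28 over all miRNAs and 0.06 over those with no remark. In HCD-RD males it was -0.01, against -0.26 and 0.08. The corresponding medians in RD-HCD males were -0.06, -0.14 and -0.01. For HCD-HCD females the members' median was 0.00, for HCD-RD females -0.24 and for RD-HCD females -0.08, against 0.03, 0.00 and 0.01 over all miRNAs. The middle 50% of members spread over 0.84 log2 units in HCD-HCD males and 0.88 in HCD-RD males, but 0.43 in RD-HCD males. Members with no remark spread over 0.75, 0.91 and 0.41, beside 0.83, 0.87 and 0.45 for all miRNAs with no remark.

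**Figure D1:**
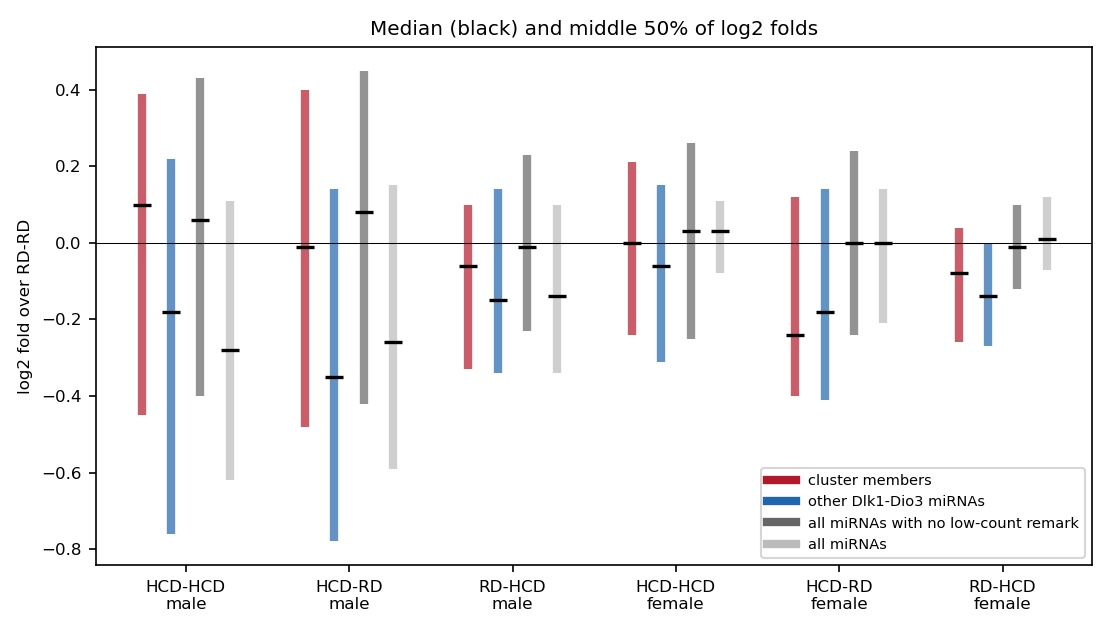
Log2 fold over RD-RD (vertical axis) in each of the 6 comparisons (horizontal axis), with the median in black and the middle 50% of miRNAs as a bar, for the 65 cluster members, the 40 other Dlk1-Dio3 entries, miRNAs with no low-count remark and all miRNAs. The cluster's bars are about as wide as those of miRNAs with no remark, and the members' median is 0.10 in HCD-HCD males and -0.24 in HCD-RD females.

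**Figure D2:**
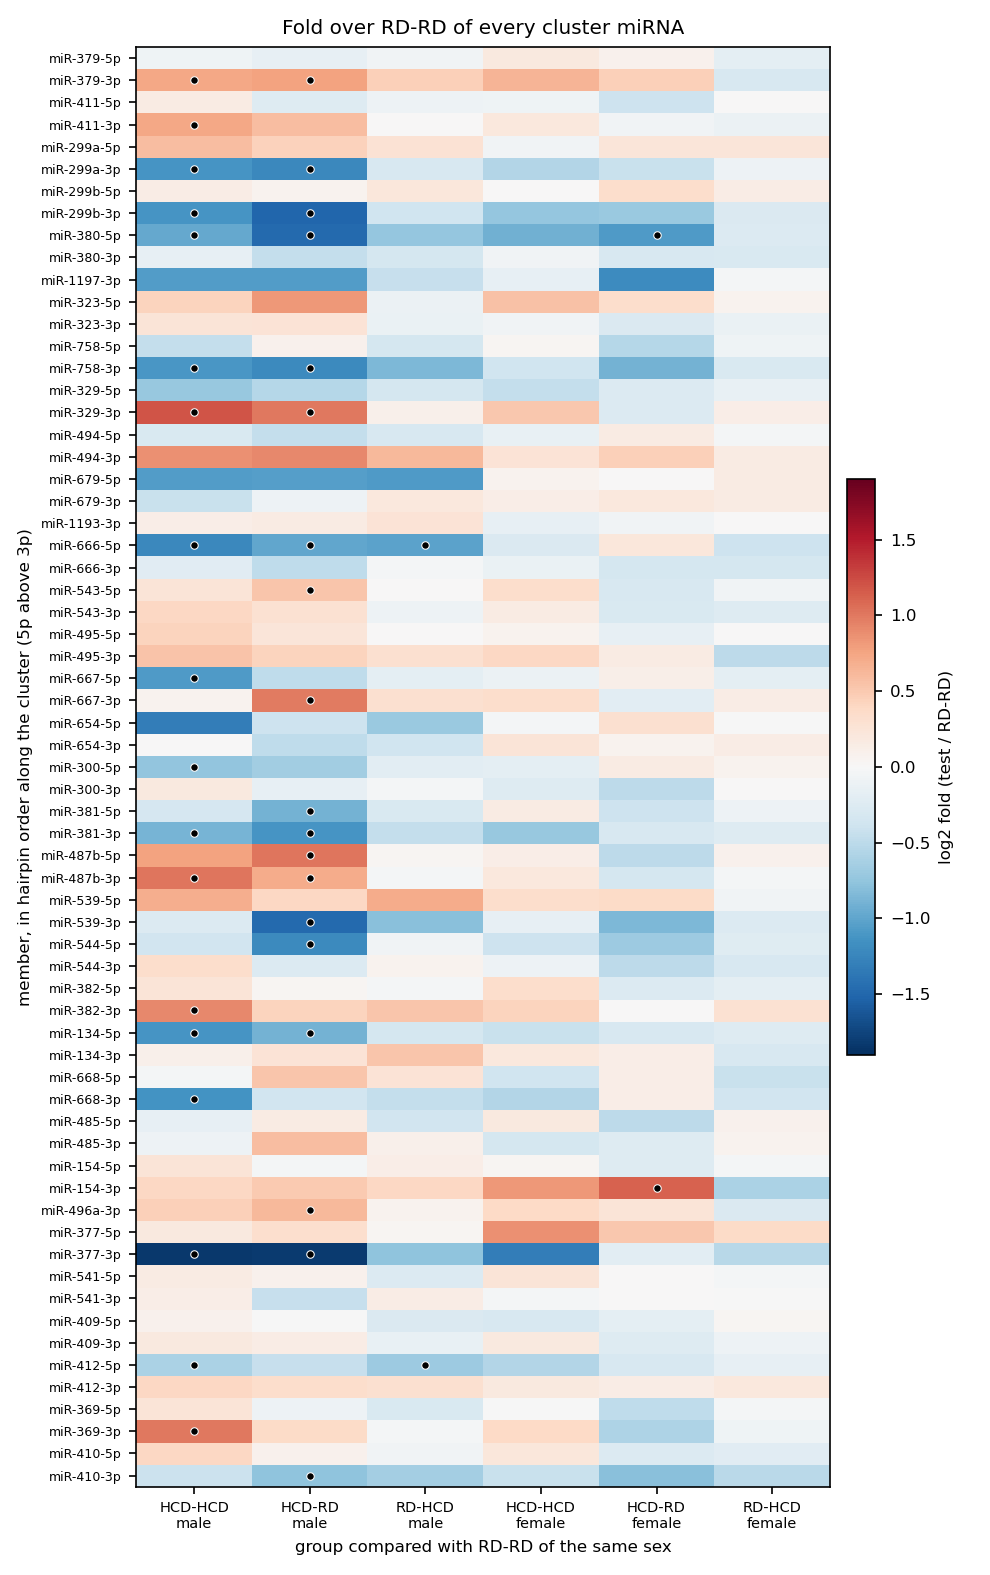
Log2 fold over RD-RD (colour, red higher and blue lower) of all 65 members, in rows by hairpin order along the cluster, in the 6 comparisons, in columns. Black dots mark adjusted p below 0.05; neighbouring rows of opposite colour are common in the first 2 columns, and only 2 dots are in the 3 female columns.

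In HCD-HCD males the 6 members that rose were all 3p arms, led by miR-329-3p. The authors' deposited table gave miR-329-3p a fold of 2.3 (95% interval 1.68 to 3.14, adjusted p = 1.8e-05). In rat neurons miR-329, like miR-134 and miR-381, is needed for dendrites to grow in response to activity. miR-487b-3p followed at 2.03-fold in the authors' deposited table (1.48 to 2.78, adjusted p = 0.00038). miR-369-3p, known in human cells for acting on the AU-rich element of TNF mRNA, stood at 2.0-fold in the authors' deposited table (1.42 to 2.81, adjusted p = 0.0014). The other three were closer to the threshold. In the authors' deposited table miR-382-3p was at 1.89-fold (adjusted p = 0.039), and miR-379-3p and miR-411-3p, which share a seed, were both at 1.67-fold (adjusted p = 0.038 and 0.018). After centring, miR-382-3p and miR-379-3p missed the threshold (adjusted p = 0.051 and 0.053). The partner 5p arms of the 6 were not called, with log2 folds from -0.72 (miR-329-5p) to 0.77 (miR-487b-5p).

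The member that fell furthest in HCD-HCD males was miR-377-3p, known in cultured kidney mesangial cells for raising fibronectin. Its fold was 0.282 in the authors' deposited table (95% interval 0.174 to 0.455, adjusted p = 2.1e-05), so its level was 28.2% of that in RD-RD males. miR-666-5p was at 0.429 (0.298 to 0.618, adjusted p = 0.00021) and miR-668-3p at 0.452 (0.31 to 0.661, adjusted p = 0.001) in the authors' deposited table. miR-134-5p, which limits the size of dendritic spines in rat hippocampal neurons by repressing Limk1, was at 0.459 in the authors' deposited table (0.307 to 0.686, adjusted p = 0.0026). The overlapping miR-299b-3p and miR-299a-3p stood at 0.459 and 0.461 in the authors' deposited table (adjusted p = 0.0016 and 0.0028). miR-758-3p, which represses the cholesterol transporter Abca1 in cultured cells, was at 0.463 in the authors' deposited table (adjusted p = 0.022). miR-380-5p, a repressor of p53 in neuroblastoma cells, was at 0.51 in the authors' deposited table (adjusted p = 0.0093). The remaining members, miR-667-5p, miR-381-3p, miR-300-5p and miR-412-5p, had folds of 0.476, 0.541, 0.595 and 0.658 in the authors' deposited table, at adjusted p between 0.012 and 0.044.

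HCD-RD males, which ate regular chow after weaning, had the same lowest member. miR-377-3p was again at 0.282 in the authors' deposited table (95% interval 0.175 to 0.456, adjusted p = 1.5e-05). The smallest adjusted p of any member was that of miR-544-5p, 2.9e-06, at a fold of 0.433 in the authors' deposited table (0.323 to 0.579). In HCD-HCD males the same miR-544-5p stood at 0.775 in the authors' deposited table and did not pass the test (adjusted p = 0.22). miR-299b-3p was at 0.352 (0.238 to 0.522) and miR-299a-3p at 0.426 (0.282 to 0.641) in the authors' deposited table, at adjusted p = 1.3e-05 and 0.00087. miR-380-5p was at 0.36 in the authors' deposited table (0.242 to 0.536, adjusted p = 2.6e-05). miR-539-3p had the same fold of 0.36 in the authors' deposited table (adjusted p = 0.0022), but its mean count was below 10 in one of the groups. Lower as well in the authors' deposited table were miR-758-3p (0.433), miR-381-3p (0.459), miR-666-5p (0.503), miR-134-5p and miR-381-5p (both 0.538) and miR-410-3p (0.588), with adjusted p between 0.003 and 0.035. miR-410 is known for raising insulin secretion in a mouse beta cell line.

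On the higher side of HCD-RD males, miR-329-3p stood at 2.0-fold in the authors' deposited table (95% interval 1.46 to 2.74, adjusted p = 0.0004). Both arms of Mir487b rose, the 5p arm to 2.01-fold (1.22 to 3.31) and the 3p arm to 1.63-fold (1.19 to 2.24) in the authors' deposited table, at adjusted p = 0.038 and 0.02. miR-667-3p was at 1.97-fold in the authors' deposited table (1.26 to 3.08, adjusted p = 0.023), while in HCD-HCD males it was at 1.04-fold (adjusted p = 0.93). miR-379-3p (1.7-fold), miR-496a-3p (1.53-fold) and miR-543-5p (1.44-fold) completed the set in the authors' deposited table, at adjusted p of 0.031, 0.049 and 0.024. These members and miR-487b-5p missed the threshold after centring (adjusted p between 0.053 and 0.089). Both male comparisons with HCD dams share the 4 RD-RD males, and a member called in one and not the other is not thereby shown to differ.

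RD-HCD males differed from RD-RD at miR-666-5p, with a fold of 0.493 in the authors' deposited table (95% interval 0.343 to 0.708, adjusted p = 0.02), and at miR-412-5p, at 0.621 (0.474 to 0.813, adjusted p = 0.04). Neither call held when p-values were adjusted over miRNAs with no low-count remark alone (adjusted p = 0.073 and 0.14). Against the shared controls, miR-666-5p was called lower in HCD-HCD and HCD-RD males too, at the folds given above. A further 6 members had a deposited p below 0.05 without passing the adjustment, and all 8 were lower than RD-RD. Over all miRNAs 178 of 1426 had such a p in this comparison, 147 of them lower. With no remark it was 69 of 860 miRNAs, 27 higher and 42 lower, and 7 members, all lower. Among the 6 uncalled members miR-377-3p was at 0.585 and miR-410-3p at 0.637 in the authors' deposited table (adjusted p = 0.31 and 0.27). The members that led the rise in HCD-HCD males were close to RD-RD here, with miR-329-3p at 1.07-fold, miR-369-3p and miR-487b-3p at 0.98 and miR-411-3p at 1.0 in the authors' deposited table. The higher members with the smallest p, none of which passed the test, were miR-379-3p (1.38-fold), miR-494-3p (1.54-fold) and miR-134-3p (1.43-fold) in the authors' deposited table. The partner arms of the called members, miR-666-3p and miR-412-3p, had folds of 0.971 and 1.24 in the authors' deposited table and were not called.

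**Figure D3:**
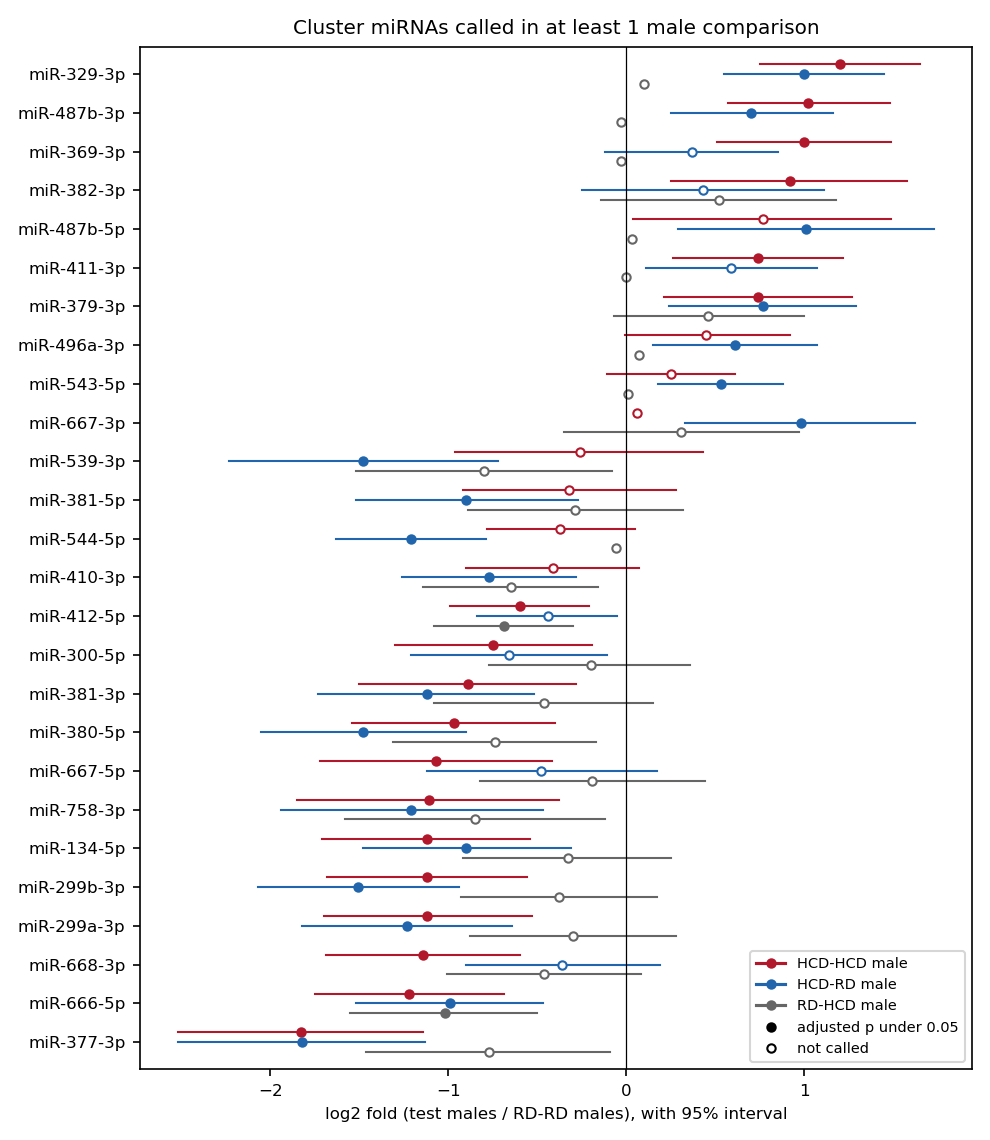
Log2 fold over RD-RD males with its 95% interval (horizontal axis) for the 26 members called in at least 1 male comparison, ordered by their fold in HCD-HCD males, with filled points for adjusted p below 0.05; points without a line had a log2 fold below 0.1 in size, for which no error was derived. Red and blue intervals of miR-377-3p reach from -2.52 to -1.13 or -1.14, while grey RD-HCD points of miR-329-3p, miR-487b-3p and miR-369-3p sit at 0.10, -0.03 and -0.03.

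Whether HCD-fed males differed by the diet of their dam was tested on the difference of the HCD-HCD and RD-HCD log2 folds, in which the shared RD-RD libraries cancel. Of 63 members tested 3 differed, all higher with HCD dams, where 4.3% of 1371 miRNAs were called. The difference was 1.10 for miR-329-3p (adjusted p = 0.0016), 1.05 for miR-487b-3p (adjusted p = 0.0032) and 1.03 for miR-369-3p (adjusted p = 0.0091). The authors also deposited a list for HCD-HCD against RD-HCD males, made from the same libraries and limited to changes of at least 2-fold. It held 47 miRNAs, 10 higher and 37 lower. Of these 3 were members, and miR-487b-3p was not listed. In the authors' deposited table of that list, miR-329-3p was at 2.07-fold (p = 3.2e-05), miR-369-3p at 2.02-fold (p = 2.4e-06) and miR-377-3p at 0.485 (p = 0.0016). For miR-377-3p the derived difference was -1.05 (95% interval -1.79 to -0.32), and its adjusted p of 0.087 missed the threshold.

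Males of HCD dams did not differ detectably by their own diet at any member. None of 64 members passed the adjustment for HCD-HCD minus HCD-RD (0% of 1381 miRNAs were called), although 7 members and 115 of all miRNAs had an unadjusted p below 0.05 in this normal test. The smallest adjusted p of a member was 0.15, for miR-544-5p, whose log2 fold was -0.37 in HCD-HCD and -1.21 in HCD-RD males, a difference of 0.84 (95% interval 0.39 to 1.29). For miR-377-3p the interval of this difference was -0.74 to 0.74. In HCD-fed females the difference by dam diet reached the threshold at none of 58 members (0.089% of 1123 miRNAs were called), with 5 members and 62 of all miRNAs at an unadjusted p below 0.05. miR-154-3p had the smallest adjusted p there, 0.12, at a difference of 1.44 (95% interval 0.64 to 2.24).

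The 2 arms of a hairpin often had folds of opposite sign, in the cluster and in other hairpins. These sequences of 3 hairpins (RefSeq, GRCm38.p6) show where the arms that moved lie, with both measured arms in capitals, the 5p arm first, and all on the plus strand.
Mir329, chr12:109713481-109713577: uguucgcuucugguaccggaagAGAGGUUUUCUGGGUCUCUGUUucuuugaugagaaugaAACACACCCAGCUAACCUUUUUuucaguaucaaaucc
Mir299a, chr12:109710638-109710700: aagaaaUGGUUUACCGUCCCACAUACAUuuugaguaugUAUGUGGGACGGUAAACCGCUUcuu
Mir377, chr12:109740510-109740577: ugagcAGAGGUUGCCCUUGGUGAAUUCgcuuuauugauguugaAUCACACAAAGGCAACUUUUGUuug
In HCD-HCD males the arms had folds of opposite sign in 14 of 31 hairpins, 1 arm was called in 18, and both were called in 0. Opposite signs were seen in 12 of 27 cluster hairpins with no remark, and in 47.6% of 189 other hairpins with no remark. With no remark, 1 arm was called in 17 of the 27 cluster hairpins (63%) and both in 0, beside 38.1% and 5.29% of the 189 other hairpins. In HCD-RD males the count was 18 of 31, or 15 of 26 with no remark, beside 42.6% of 190 other hairpins. Both arms were called at 2 hairpins in HCD-RD males, Mir487b (both higher) and Mir381 (both lower), and 1 arm at 14. With no remark, 12 of 26 cluster hairpins had 1 arm called and 2 both (46.2% and 7.69%), beside 40.5% and 8.42% of other hairpins.

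The arms' 95% intervals did not overlap at 3 hairpins in HCD-HCD males and at 6 in HCD-RD males. With no remark these were 3 of 27 (11.1%) and 5 of 26 (19.2%), beside 14.8% and 13.7% of other hairpins, and nothing particular to the cluster is read from them. Mir329, Mir299a and Mir377 were among them in both. The log2 fold in HCD-HCD males was -0.72 for miR-329-5p and 1.20 for miR-329-3p, the largest rise in the cluster. At Mir377 it was 0.19 for the 5p arm and -1.83 for the 3p arm, and at Mir299a 0.58 and -1.12. In HCD-RD males the same pairs stood at -0.54 and 1.00, at 0.32 and -1.82, and at 0.44 and -1.23. Mir667, Mir379 and Mir539 were the other three in HCD-RD males, with Mir667 at -0.48 for the 5p arm and 0.98 for the 3p arm. In HCD-HCD females the intervals were apart at Mir377 (0.87 and -1.31) and in HCD-RD females at Mir154 (-0.24 and 1.12). Over the cluster hairpins with both arms and no remark the median size of the log2 difference between arms was 0.80 in HCD-HCD males and 0.68 in HCD-RD males, against 0.63 and 0.62 in other hairpins with no remark.

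**Figure D4:**
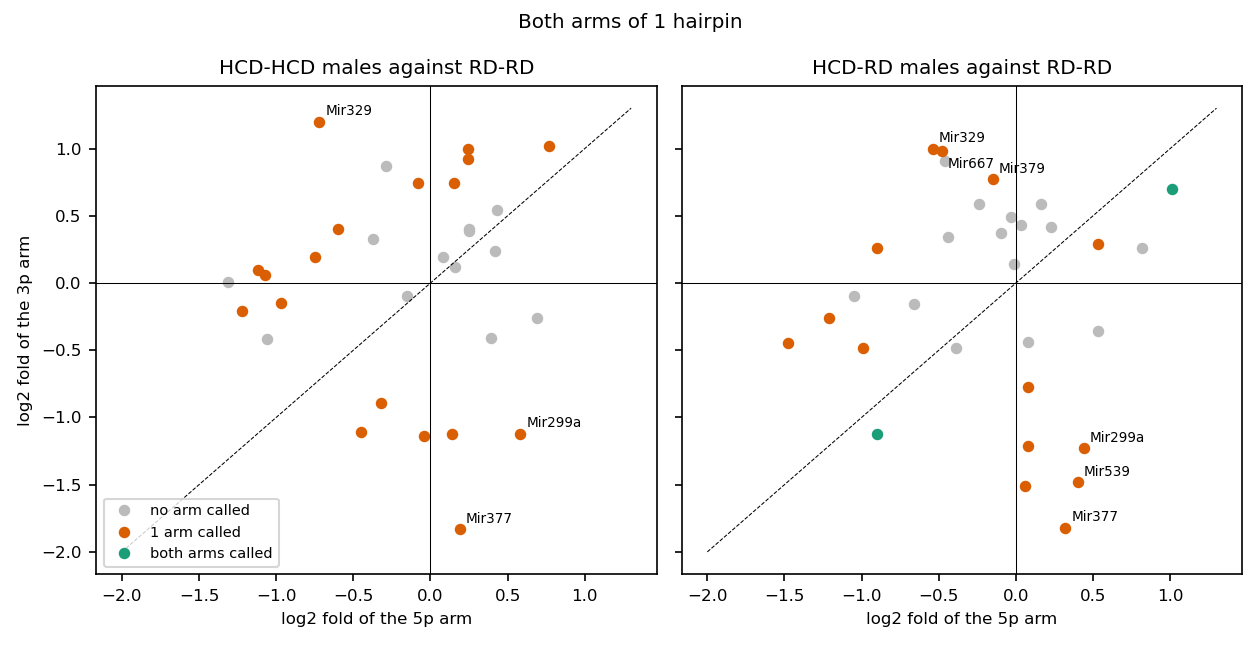
Log2 fold over RD-RD of the 3p arm (vertical axis) against that of the 5p arm (horizontal axis) for the 31 cluster hairpins with both arms, in HCD-HCD males (left) and HCD-RD males (right); the dashed line marks equal folds. Orange points have 1 arm called, green points both, and named hairpins are the 3 and 6 whose arms' 95% intervals do not overlap, Mir377 and Mir299a below the line and Mir329 above it.

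By arm, the called 3p members of HCD-HCD males were 6 higher and 6 lower of 34, and the called 5p members 0 higher and 6 lower of 31. Over all miRNAs with no remark, 43 of 357 3p entries were higher and 43 lower, and 32 of 331 5p entries were higher and 43 lower. In HCD-RD males 5 of the 3p members were higher and 7 lower, and 2 of the 5p members were higher and 5 lower. There, over all miRNAs with no remark, 44 of 362 3p entries were higher and 44 lower, and 40 of 331 5p entries were higher and 49 lower. Taken by position, the 42 members upstream of annotated Mirg included 4 that were higher and 8 lower in HCD-HCD males, and the 23 within it 2 and 4. Over all miRNAs 5.61% were higher and 13.7% lower there, and of 757 with no remark 79 were higher and 90 lower. The middle 50% of members' log2 folds spanned 1.16 units upstream and 0.44 within, and in HCD-RD males 1.25 and 0.58. All 6 members that carried a low-count remark in HCD-HCD males were upstream.

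The dendrite and synapse group, both arms of miR-134, miR-329, miR-381, miR-485 and miR-495, had 10 measured members. In HCD-HCD males 1 was higher (miR-329-3p) and 2 lower (miR-134-5p and miR-381-3p), with a median log2 fold of -0.12. Over all miRNAs 5.61% were higher and 13.7% lower. With no remark 22.3% were called, 79 higher and 90 lower of 757, and the median was 0.06. In HCD-RD males 1 of the group was higher and 3 were lower, miR-381-5p in addition, with a median of 0.20. There 6.38% of all miRNAs were higher and 12% lower. With no remark 24.2% were called, 90 higher and 95 lower of 765, and the median was 0.08. The same group had 0 called members in RD-HCD males and in each female comparison, where at most 1.69% of all miRNAs were called. miR-485, which in rat neurons represses the synaptic vesicle protein Sv2a, was called in no comparison, and miR-495 in none either.

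Many mature members carry related cores, which were looked for after the folds were known and so have no test. The letters ACANGG were searched on the mature strand of the 3p arms and were found in 11 of 32 members with a sequence, beside 52 (3.1%) of 1679 mature miRNAs of either arm in the RefSeq table. Those 11 included miR-379-3p, miR-411-3p, miR-369-3p, miR-154-3p, miR-496a-3p and miR-381-3p. In HCD-HCD males 3 of the 11 were higher and 1 lower, with a median log2 fold of 0.45, and of the 21 other 3p members 2 were higher and 5 lower, with a median of 0.06. Beside these, 5.61% of all miRNAs were higher and 13.7% lower. Of 357 3p entries with no remark 43 were higher and 43 lower, with a median of 0.10. In HCD-RD males the medians of 3p members with and without the letters were 0.49 and -0.26, and in RD-HCD males 0.07 and -0.04. They were 0.26 and -0.07 in HCD-HCD females, -0.06 and -0.25 in HCD-RD females and -0.12 and -0.10 in RD-HCD females. In the 5p arms GGUUNNCC was found in 12 of 30 members and 20 (1.19%) of the 1679. Medians were -0.10 with it and 0.05 without it in HCD-HCD males, and in the reverse order in HCD-RD males, -0.02 and -0.12. No gene or factor is implied by these letters.

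Median GC content differed between the few higher and lower members called in HCD-HCD males, whose ranges overlapped. It differed little between those called in HCD-RD males. In HCD-HCD males the 5 higher members with a sequence had a median GC content of 36.4% (from 23.8% to 45.5%). The 12 lower ones had 48.9% (from 36.4% to 68.2%), and the 39 not called 47.6%. The 12 include both miR-299a-3p and miR-299b-3p, whose sequences overlap. In HCD-RD males the medians were 46.6% for 6 higher members, 45.5% for 11 lower ones and 47.6% for 38 not called. Spearman's correlation of GC content with log2 fold was -0.28 over 56 members with no remark and -0.07 over 663 miRNAs. In HCD-RD males it was 0.03 over 55 members and 0.17 over 671 miRNAs. These points share libraries and are a description, and the part of base composition in the folds was not tested.

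Few members passed the test in females. In HCD-RD females miR-380-5p fell to 0.472 in the authors' deposited table (95% interval 0.354 to 0.629, adjusted p = 0.00018), and miR-154-3p rose to 2.17-fold (1.39 to 3.4, adjusted p = 0.043). miR-380-5p stood below RD-RD in all 6 comparisons, with folds in the authors' deposited table of 0.51 in HCD-HCD males, 0.36 in HCD-RD males and 0.599 in RD-HCD males, and of 0.529, 0.472 and 0.833 in the corresponding females. It did not pass the test in HCD-HCD females (adjusted p = 0.22) or RD-HCD females (adjusted p = 1). miR-154-3p stood at 1.31-fold, 1.4-fold and 1.31-fold in the males and at 1.78-fold, 2.17-fold and 0.658 in the females, in the authors' deposited table. In HCD-HCD females miR-377-3p had the smallest p of the cluster, at a fold of 0.403 in the authors' deposited table (0.231 to 0.702), which did not pass the adjustment (p = 0.0013, adjusted p = 0.15). miR-381-3p was at 0.606 and miR-377-5p at 1.83-fold there in the authors' deposited table (adjusted p = 0.29 and 0.84). Uncalled in HCD-RD females were miR-1197-3p, at 0.437 with a low-count remark, and miR-758-3p, at 0.538, in the authors' deposited table (adjusted p = 0.11 and 0.16). miR-379-3p and miR-494-3p, the next on the higher side, were both at 1.38-fold there in the authors' deposited table (adjusted p = 0.8 and 0.69). miR-379-5p and miR-679-5p had no p in HCD-RD females. RD-HCD females had their smallest member p at miR-154-3p, 0.13, with all members between log2 folds of -0.60 and 0.37. The others named there by the smallest p were miR-377-3p (0.694), miR-495-3p (0.709), miR-377-5p (1.29-fold) and, with low counts, miR-679-3p (1.11-fold) and miR-679-5p (1.12-fold) in the authors' deposited table.

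The sexes were compared on their log2 folds, each against RD-RD of its own sex, so that no library was shared, and each table was normalised on its own. A member entered where both folds had a derived error. In HCD-RD 1 of 49 members differed, where 1.63% of 861 miRNAs were called: miR-377-3p had a log2 fold of -1.82 in males and -0.20 in females, a difference of -1.62 (adjusted p = 0.024). In HCD-HCD 0 of 45 members differed (0% of 636 miRNAs) and in RD-HCD 0 of 29 (0% of 508), with 1 member each, and 52 and 62 of all miRNAs, at an unadjusted p below 0.05 in this normal test. With missing errors filled from the same table, an alternative chosen after seeing the data, the 3 tests took in 65, 63 and 65 members and called 0, 1 and 0, again miR-377-3p (adjusted p = 0.029). The median derived error of members was 0.29 in HCD-HCD males and 0.39 in HCD-HCD females, so the same fold was further from the threshold in females.

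**Figure D5:**
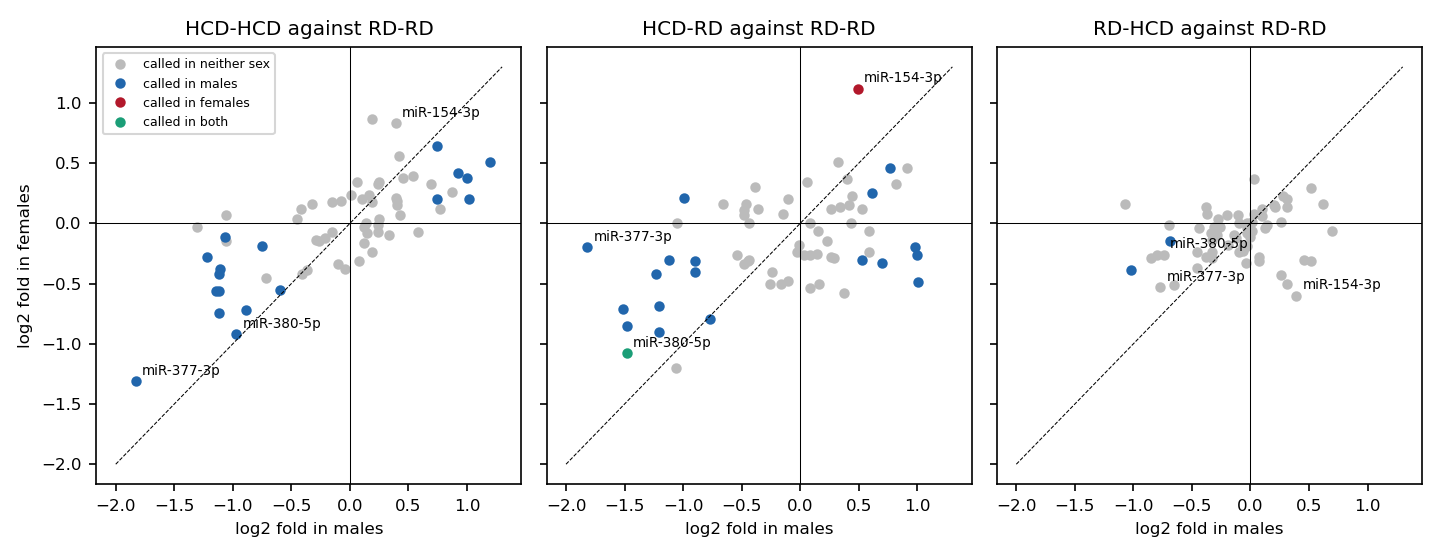
Log2 fold over RD-RD in females (vertical axis) against that in males (horizontal axis) for the cluster members in each of the 3 diet groups, with colours for the sex in which a member was called and a dashed line for equal folds. miR-377-3p lies near the line at -1.83 and -1.31 in HCD-HCD and away from it at -1.82 and -0.20 in HCD-RD.

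The other miRNAs of the Dlk1-Dio3 region were 40 entries outside the cluster. In HCD-HCD males 4 were higher and 13 lower (median log2 fold -0.18). Over all miRNAs 5.61% were higher and 13.7% lower (median -0.28, or 0.06 with no remark). In HCD-RD males 4 of the 40 were higher and 10 lower (median -0.35). Over all miRNAs 6.38% were higher and 12% lower (median -0.26, or 0.08 with no remark). With no remark, 22.3% and 24.2% of all miRNAs were called in these comparisons. These were 79 higher and 90 lower of 757, and 90 higher and 95 lower of 765. In RD-HCD males the 40 entries had 0 called (1.47% of all miRNAs), with 5 at an unadjusted p below 0.05 (178 of 1426). By source, in HCD-HCD males, 2 of 13 entries antisense to Rtl1 were higher and 6 lower, 1 of 21 on the Meg3 and Rian side was higher and 6 lower, and 1 of 6 in the miR-376 family was higher and 1 lower. No test of the cluster against these lists was made.

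Markers of cell types were looked up in the same tables, and no marker listed had a low-count remark in any comparison, including miR-122-5p of liver and the 3 muscle miRNAs. Neuronal markers were called in 1 of 5 in HCD-HCD males, with miR-138-5p at 0.442 in the authors' deposited table, and miR-124-3p and miR-9-5p were not called in any comparison. Of 5 microglia and leukocyte markers, 1 was higher in HCD-HCD males, miR-155-5p at 2.47-fold, and 2 were lower, miR-142a-5p at 0.256 and miR-142a-3p at 0.599, in the authors' deposited table. The same 3 were called in HCD-RD males, at 2.04-fold, 0.178 and 0.49 in the authors' deposited table. The median log2 fold of the 5 was -0.15 and 0.10 in these comparisons. Among erythrocyte markers 0 of 4 were higher and 1 lower in HCD-HCD males and 1 higher and 2 lower in HCD-RD males, and among choroid plexus and ependymal markers 1 of 4 was higher and 2 lower in each. Of the oligodendrocyte markers 1 of 3 was lower in HCD-HCD males and 2 of 3 in HCD-RD males, and of the endothelial pair 1 was higher in the former and 1 lower in the latter. Called elsewhere was miR-7a-5p, of neuroendocrine cells, at 0.439 in HCD-RD females in the authors' deposited table. The part of these lists in the cluster's folds was not tested, and fewer cells of a type and less miRNA per cell cannot be told apart in tissue.

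Library names in the authors' sheets carry a running number. RD-RD, RD-HCD females and the libraries of 2 other codes have 16 different numbers from 1 to 16, and the 15 libraries of RD-HCD males and of both sexes of HCD-HCD and HCD-RD have 15, of which 14 occur in the first set too. The 2 sets are inferred from these numbers alone, and libraries of the remaining codes were placed in neither. The sheets do not say whether the 2 sets were handled apart, and for 5 of the 6 comparisons such a split and the diet cannot be told apart. Of the differences between folds, HCD-HCD minus RD-HCD in females also crosses the sets. In the RD-HCD sex test the male fold crosses them and the female fold does not. Both differences by diet in males set libraries of the same set against each other. The share of all miRNAs called was 0% in RD-HCD females, the comparison with RD-RD within 1 set. In the 5 comparisons across the sets it was 0.0668% in HCD-HCD females, 1.69% in HCD-RD females, 1.47% in RD-HCD males, 19.3% in HCD-HCD males and 18.4% in HCD-RD males. The part of such a split in these shares was not tested. The sheets and the labels number the 3 RD-HCD males differently, so these are matched by their group code.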

How the data were processed

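Small RNA was sequenced from mouse hypothalamus in 25 libraries (13 male, 12 female). The authors counted unique molecular identifiers, normalised them and tested groups with DESeq2, per the file headers. Each deposited fold is a ratio, test group over RD-RD, to 2 decimals. Fold regulation, a signed score per the file headers, is minus the inverse for folds below 1 and gave the digits there. The deposited p-value is unadjusted. The DESeq2 version, aligner and annotation were not given in the sources used here; the submitters' processing notes name build mm10. Depth per library is unknown. The deposited tables hold folds and p-values rather than counts, so no count test was run here. HCD-RD females are in a table of their own.

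Of 1721 entries 103 piRNAs were left out. Benjamini-Hochberg adjustment was made over all miRNAs with a p. The log2 error is the log2 fold over the normal score of its p, given where the log2 fold was at least 0.1 in size. Differences between folds were tested with a two-sided normal test, adjusted over all miRNAs tested. The calls, the derived errors and these tests were tried on simulated data, and the alternatives below were not. Leaving out small folds can make the sex test call too readily; filling their errors is the alternative for that. Named were, per comparison, all called members and the 3 higher and 3 lower with the smallest p. Members and lists were chosen with earlier results of these data known. Alternatives were a filter on remarks, centring, piRNAs included, the Benjamini-Yekutieli adjustment, a fold of at least 1.5 and 1 arm per hairpin. Of 43 libraries in the sheets, 18 were not analysed here. Python 3.11.15, numpy 2.4.6, pandas 2.3.3 and scipy 1.17.1 were used.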

Additional observations from a re-analysis of the deposited data

Results flagged for a closer look

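miR-377-3p was the 1 of 49 members tested in HCD-RD whose fold differed between the sexes, where 1.63% of 861 miRNAs were called. Its log2 fold was -1.82 in males (95% interval -2.52 to -1.13) and -0.20 in females (-0.75 to 0.35), a difference of -1.62 (adjusted p = 0.024). In HCD-HCD the same miRNA was at -1.83 in males and -1.31 in females, and that difference did not pass the test. The HCD-RD females come from a table normalised apart from that of the other females.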

How the results depend on the processing

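The Benjamini-Yekutieli adjustment, which allows for any dependence between miRNAs, lowered the number of called members to 9 in HCD-HCD males (3 higher, 6 lower), 9 in HCD-RD males (1 higher, 8 lower), 0 in RD-HCD males and 1 in HCD-RD females. The share of all miRNAs called under that adjustment is not given here, so nothing is read from these counts about the cluster. Testing only miRNAs with no low-count remark left 0 called members in RD-HCD males, since the adjusted p of the same folds rose. The other alternatives left the counts of called members within 1.5 times, and no called direction reversed. The members' median log2 fold ranged over the alternatives from -0.01 to 0.14 in HCD-HCD males, -0.20 to 0.08 in HCD-RD males, -0.28 to -0.04 in RD-HCD males, -0.13 to 0.00 in HCD-HCD females, -0.27 to -0.24 in HCD-RD females and -0.18 to -0.08 in RD-HCD females, with the lowest value from 1 arm per hairpin in each. Centring the log2 folds on the median of miRNAs with no remark moved miR-379-3p in both male comparisons with HCD dams, miR-382-3p in HCD-HCD males and miR-487b-5p, miR-496a-3p and miR-543-5p in HCD-RD males out of the called set, with adjusted p between 0.051 and 0.089. Including piRNAs did so for miR-496a-3p (adjusted p = 0.051). No paired analysis was possible because the tables give 1 fold and p per comparison; leaving out single libraries was not run for the same reason. The 3 tests of differences by diet, and the count summed over the 3 between the sexes, gave the same numbers of called members with centring, with the remark filter and with filled errors. The unknown depth limits the members with a low-count remark, and 3 or 4 libraries a group limit all folds.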
